A study of Mus musculus with 6 samples.

Results

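A set of 10 genes of the RGS family was followed in the mouse hippocampus: Rgs2, Rgs4, Rgs5, Rgs7, Rgs8, Rgs10, Rgs12, Rgs14, Rgs16 and Rgs17. They were taken by name from a table of read counts per gene, and make up 10 of its 18263 genes. The libraries came from the hippocampus of mice aged 6 months, with 3 libraries from 5xFAD mice and 3 from wild-type (WT) mice. The 5xFAD line carries transgenes for human amyloid precursor protein and human presenilin-1, each with familial Alzheimer's disease mutations and driven by the Thy1 promoter, which is active mainly in neurons. It was described as made on a C57BL/6J background, and its WT controls lack the transgenes. Total RNA was depleted of ribosomal RNA before sequencing. Nothing in the labels says whether the 3 replicates of a genotype came from separate animals, so p-values measure only the spread between these libraries.

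Total counts were 8450009, 8617365 and 12577839 in 5xFAD replicates 1 to 3 and 12102506, 11932360 and 8696392 in WT replicates 1 to 3. WT replicate 3 stood apart. Across 12771 genes, the Spearman correlation between its deviation from the other WT libraries and the GC content of the transcript was −0.60, against −0.09 to 0.06 in the other 5 libraries. This is a correlation across genes of the same library and carries no test. WT replicate 3 was part of no reference, so WT replicates 1 and 2 were set only against each other. Their values, 0.06 and −0.06, are therefore mirror images and not separate comparisons. Of 12952 genes with enough counts to test, 85 passed an adjusted p (Benjamini-Hochberg over all tested genes) of 0.05 in edgeR's quasi-likelihood test, all of them higher in 5xFAD. Without WT replicate 3 the calls went both ways, with 320 higher and 67 lower in 5xFAD. Markers of hippocampal neurons were present in all libraries, for example Prox1 of dentate granule cells at 290 to 367 CPM in 5xFAD and 141 to 321 CPM in WT. CPM are counts-per-million after the library totals were scaled by edgeR's trimmed mean method (TMM).

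RGS proteins (regulators of G protein signalling) speed up the hydrolysis of GTP by the alpha subunits of heterotrimeric G proteins, and so shorten the signal of G protein-coupled receptors. They are sorted into subfamilies by sequence. The small R4 proteins (here Rgs2, Rgs4, Rgs5, Rgs8 and Rgs16) act mainly on Gi/o and Gq, the R7 proteins (Rgs7) work as a complex with the G beta subunit Gnb5, the R12 group holds Rgs10 and the multidomain proteins Rgs12 and Rgs14, and Rgs17 belongs to the RZ group. In the brain, Rgs4 is known as a neuronal gene of the forebrain, Rgs5 as a marker of pericytes and vascular smooth muscle, Rgs10 as abundant in microglia though also present in neurons, and Rgs14 as enriched in pyramidal neurons of area CA2.

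The R4 genes differ at the start of their proteins in a way known to set protein stability, which RNA counts do not measure. A protein that starts with methionine and cysteine can lose the methionine, have its cysteine oxidised and arginylated, and be degraded by the N-degron pathway, of which Rgs4, Rgs5 and Rgs16 are known substrates. The first 30 coding bases are shown for the 5 R4 genes and for Rgs10, from GENCODE M21 transcripts on GRCm38, with codon 2 in capitals.
Rgs4: atgTGCaaaggacttgcaggtctgccggct
Rgs5: atgTGTaagggactggcagctctgccgcac
Rgs16: atgTGCcgcaccctagccaccttccccaac
Rgs2: atgCAAagtgccatgttcctggctgtccag
Rgs8: atgGCTgccttactgatgccacgcaggaac
Rgs10: atgTTCacccgcgccgtgagccgactgagc
Codon 2 was a cysteine codon in Rgs4, Rgs5 and Rgs16, and in these 3 of the 10 genes only. It coded for glutamine in Rgs2, alanine in Rgs8 and phenylalanine in Rgs10. Over all 45 pairs of the 10 genes, the longest exact run shared by their transcripts was 24 bases, between Rgs8 and Rgs16, well under the read length of 150 bases.

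Rgs4 lies on chromosome 1 at 169741477 to 169747642 (minus strand, GRCm38) and Rgs5 beside it at 169655501 to 169695813 (plus strand), with 45663 bases between them. Rgs8 (chromosome 1, 153653025 to 153700323) and Rgs16 (chromosome 1, 153740349 to 153745468) are likewise neighbours, 40025 bases apart. Of the 10 genes, 6 are on chromosome 1. Rgs10 is on chromosome 7 at 128373621 to 128418758, minus strand. Antisense genes share exonic bases with Rgs8 (Gm29529, 70 bases), Rgs12 (Gm43791, 467 bases) and Rgs16 (Gm28513, 236 bases). No source used here says whether counting used strand, and reads from these stretches therefore cannot be told apart. Rgs17 transcripts held long runs in common with transcripts of 17 other genes, and no source used here says how reads that fit several genes were counted, so the values of Rgs17 are uncertain to that extent.

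All 10 genes passed the filter on low counts, with between 542 (Rgs10) and 5424 (Rgs17) counts over the 6 libraries. Per kilobase of exon, Rgs4 stood first in both genotypes, at 12.1 ± 0.18 CPM per kb in 5xFAD and 24.9 ± 10.1 CPM per kb in WT (SD, n = 3 each). In WT libraries Rgs4 was followed by Rgs17 (11.8), Rgs5 (11.5), Rgs14 (10.4) and Rgs7 (9.66 CPM per kb), and no WT value of Rgs4 overlapped those of Rgs17. In 5xFAD libraries Rgs4 was followed by Rgs14 (11.5), Rgs5 (10.1) and Rgs17 (9.18 CPM per kb), and each of these 4 genes overlapped its neighbour in the order. Rgs8 and Rgs10 came in the middle, with Rgs10 at 5.68 ± 0.41 CPM per kb in 5xFAD and 4.63 ± 3.16 CPM per kb in WT. Rgs2, Rgs12 and Rgs16 were lowest, between 3.90 and 4.11 CPM per kb in 5xFAD and between 3.38 and 4.12 CPM per kb in WT.

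**Figure D1:**
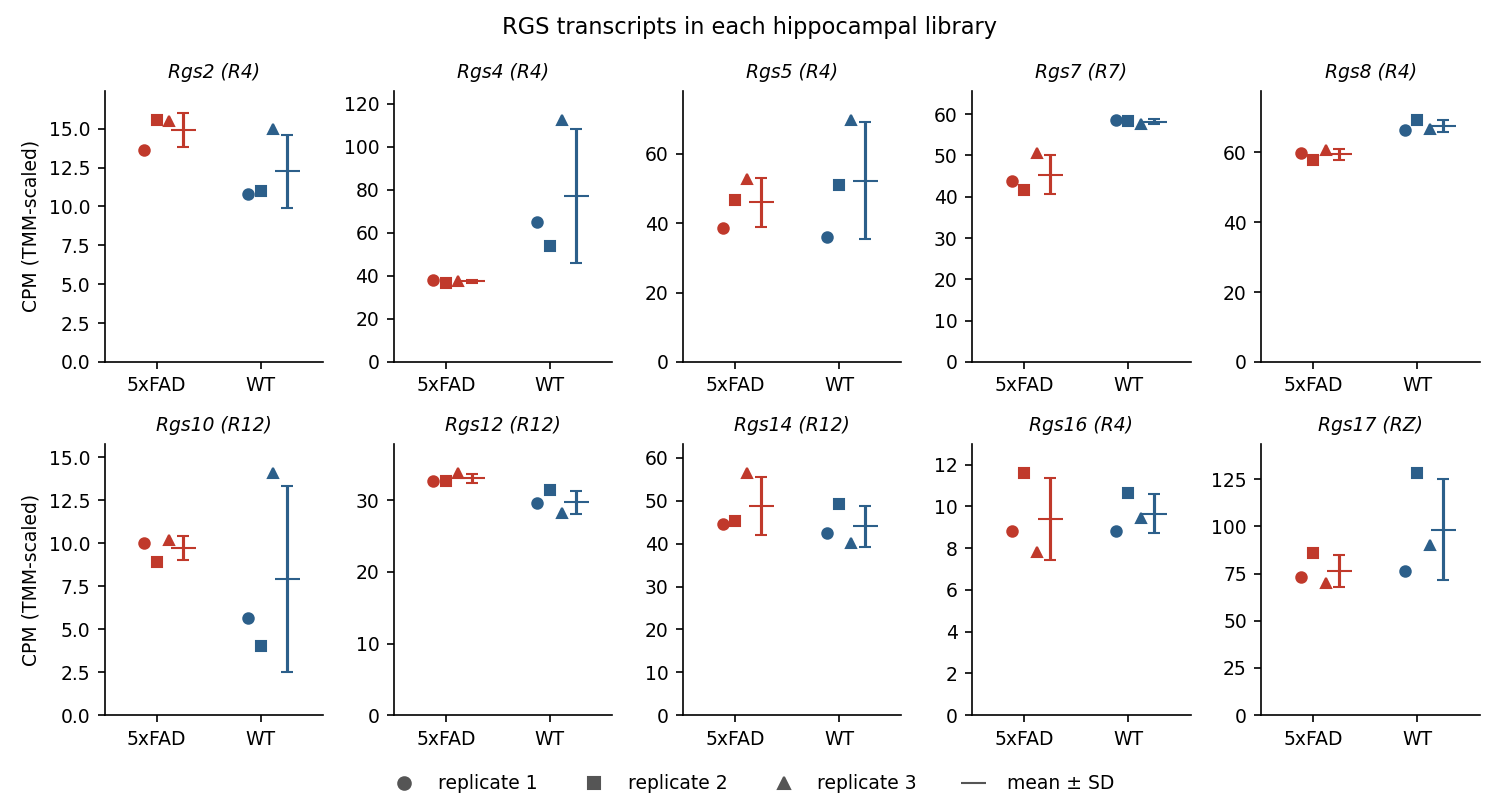
Expression of the 10 RGS genes in each library, in TMM-scaled CPM (linear axes from 0), with 5xFAD in red and WT in blue. Each point is a library and the bar is the mean ± SD (n = 3). The 3 5xFAD points of Rgs4 lie between 36.8 and 37.9 CPM, below all WT points, and WT replicate 3 (triangle) is the highest point of Rgs4, Rgs5 and Rgs10.

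None of the 10 genes passed the adjusted threshold in edgeR's quasi-likelihood test with all 6 libraries, where 0.656% of all tested genes did. At an unadjusted p under 0.05, 1 of the 10 (Rgs4) was lower in 5xFAD, against 1.78% of all tested genes, and none was higher, against 4.52% of all tested genes. Rgs4 was also the only one of the 10 called under any alternative. These were the DESeq2 test (1.68% of all tested genes called), edgeR's likelihood ratio test (1.85%), the correction for GC content and length (0.95%), the fit without WT replicate 3 (2.89%) and limma-voom with library weights (3.17%). Values of the genotypes did not overlap for 3 of the 10 genes that were lower in 5xFAD (Rgs4, Rgs7 and Rgs8), against 6.35% of all tested genes, and for 1 that was higher (Rgs12), against 8.42% of all tested genes. The median log2 difference of the 10 genes was −0.11, beside −0.02 over all tested genes, with 4 genes above 0 and 6 below. Without WT replicate 3 these medians were 0.02 for the 10 genes and 0.01 over all tested genes.

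**Figure D2:**
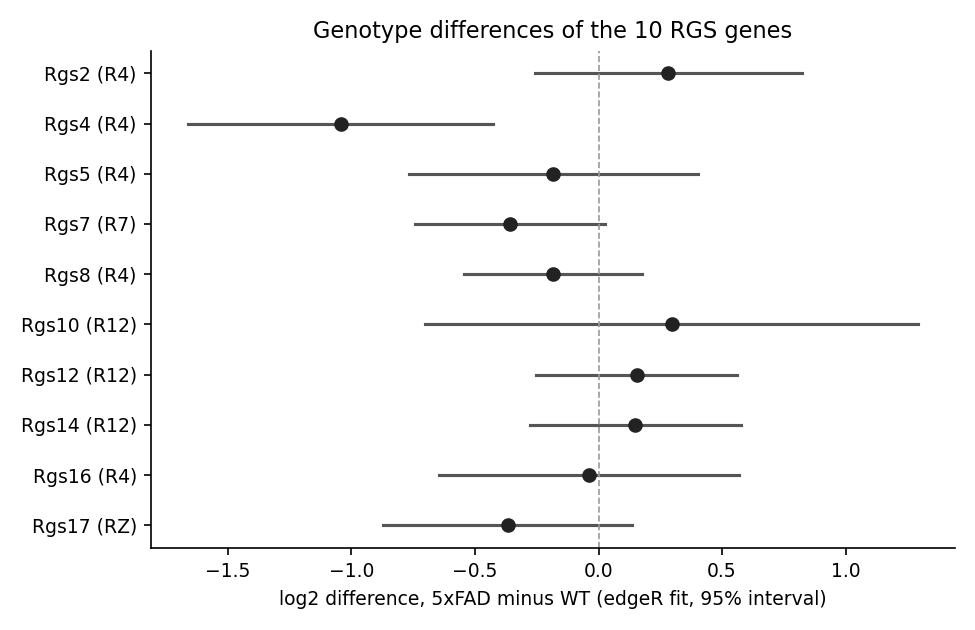
Log2 difference of each RGS gene, 5xFAD minus WT, from the edgeR fit to all 6 libraries. Points are estimates and lines are 95% intervals. The interval of Rgs4, −1.66 to −0.43, is the only one of the 10 that does not include 0, and that of Rgs10, −0.70 to 1.29, is the widest.

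Rgs4 acts on Gi/o and Gq in neurons and was measured at 37.9, 36.8 and 37.6 CPM in 5xFAD, against 65.2, 53.7 and 113 CPM in WT. The 5xFAD libraries were nearly equal to each other, the WT libraries were spread widely, and the lowest WT library was still above the highest 5xFAD library. The log2 difference was −1.04 ± 0.27 (SE), a ratio of 0.485 with a 95% interval of 0.316 to 0.745. The gene ranked 205 of 12952 by p and 6 among genes lower in 5xFAD, with an adjusted p of 0.26 in edgeR's quasi-likelihood test. In these bulk libraries, fewer neurons and less Rgs4 RNA per neuron cannot be told apart.

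The size of the Rgs4 difference depended on WT replicate 3, and its call on that library, on the test and on the correction used. Without that library the difference was smaller, −0.66 ± 0.13, and passed the threshold with an adjusted p of 0.0078 in the same edgeR test, where 2.89% of genes were called. Corrected for GC content and length, it was −0.83 ± 0.15 with an adjusted p of 0.042, where 0.95% of genes were called. The DESeq2 test gave an adjusted p of 0.040, where 1.68% of genes were called, and edgeR's likelihood ratio test 0.038, where 1.85% were called. With limma-voom and library weights, an alternative added after the data were seen, the difference was −0.71 ± 0.14 with an adjusted p of 0.0043, where 3.17% of genes were called. Over all 15 alternatives the difference of Rgs4 stayed below 0, between −1.25 and −0.66, and its adjusted p ran between 0.0043 and 0.93. It was called in 5 of the 15.

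**Figure D3:**
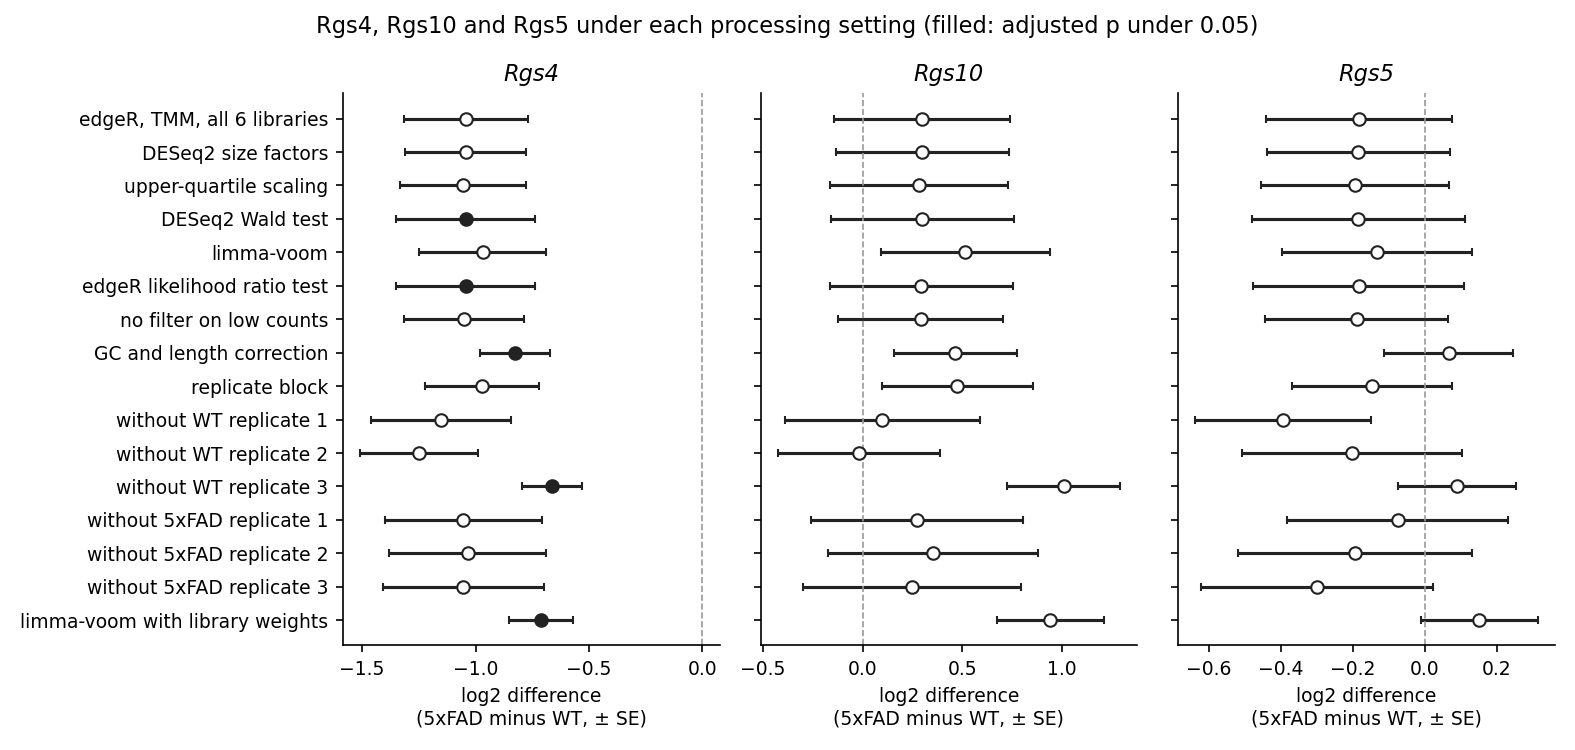
Log2 difference of Rgs4, Rgs10 and Rgs5, 5xFAD minus WT, under each setting named on the vertical axis. Points are estimates, bars are ± SE, and filled points have an adjusted p under 0.05. Rgs4 is below 0 throughout, from −1.25 to −0.66, while Rgs10 runs from −0.02 to 1.01 and Rgs5 lies on both sides of 0.

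Among the other R4 genes none was called. Rgs2, an inducible gene that acts best on Gq, had 13.6, 15.6 and 15.5 CPM in 5xFAD and 10.8, 11.02 and 15.0 CPM in WT. Its WT replicate 3 fell inside the 5xFAD range, and the log2 difference was 0.28 ± 0.24, or 0.46 ± 0.21 without that library. Rgs5, the mural cell gene, had 38.7, 46.5 and 52.7 CPM in 5xFAD and 36.0, 51.0 and 69.8 CPM in WT. The groups overlapped, and the log2 difference of −0.18 ± 0.26 changed sign to 0.09 ± 0.16 without WT replicate 3. The neighbour of Rgs4 on the chromosome thus had an interval of −0.77 to 0.40, which includes 0.

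Rgs8, best known from cerebellar Purkinje cells, was tight within each genotype. It had 59.8, 57.7 and 60.6 CPM in 5xFAD and 66.4, 69.3 and 66.6 CPM in WT. The groups did not overlap, but the difference was small, −0.18 ± 0.16 on the log2 scale, with an adjusted p of 0.83 in edgeR's test. Its WT replicate 3 lay between the other WT libraries. Rgs16, a gene induced by immune and circadian signals in other tissues, was among the lowest, at 8.80, 11.6 and 7.80 CPM in 5xFAD and 8.83, 10.7 and 9.43 CPM in WT. Its log2 difference was −0.04 ± 0.27, with an interval of −0.64 to 0.57, which leaves room for differences in either direction.

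Rgs7 is the R7 protein that controls Gi/o signals of neurons. It had 43.9, 41.6 and 50.5 CPM in 5xFAD and 58.7, 58.2 and 57.5 CPM in WT. All WT values were above all 5xFAD values and lay closer to each other than the 5xFAD values did. The log2 difference of −0.36 ± 0.17 had an interval of −0.74 to 0.03 and an adjusted p of 0.81 in edgeR's test. It stayed below 0 in all 15 alternatives, between −0.45 and −0.30, and was called in none. Rgs17, which acts on Gz and Gi, had the most reads of the 10 genes, at 73.0, 85.8 and 69.8 CPM in 5xFAD and 76.2, 128 and 90.3 CPM in WT. The groups overlapped, WT replicate 2 was the highest library, and the log2 difference was −0.37 ± 0.22. It was −0.13 ± 0.21 without that library and −0.12 ± 0.29 after correction for GC content and length.

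In the R12 group, Rgs10, a small protein of microglia and neurons, had 10.04, 8.91 and 10.2 CPM in 5xFAD and 5.62, 4.04 and 14.1 CPM in WT. The 5xFAD libraries lay between WT replicates 1 and 2 on the low side and WT replicate 3 on the high side. The counts behind these values were 81, 76 and 128 in 5xFAD and 65, 44 and 148 in WT. With all libraries the log2 difference was 0.30 ± 0.44 (adjusted p = 0.88, edgeR). Without WT replicate 3 it was 1.01 ± 0.28 with an adjusted p of 0.069 in edgeR's test, and without WT replicate 2 it was −0.02 ± 0.41. The direction of Rgs10 therefore rested on which WT libraries were kept, and over the 15 alternatives, none of which called it, its adjusted p ran between 0.060 and 1.00.

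Rgs12 and Rgs14 are scaffolds that also bind Ras-type proteins and inactive Gi. Rgs12 had 32.7, 32.7 and 33.8 CPM in 5xFAD and 29.6, 31.4 and 28.2 CPM in WT. The groups did not overlap, the log2 difference was 0.15 ± 0.18, and it changed to −0.08 ± 0.18 after correction for GC content and length. Rgs14 had 44.5, 45.3 and 56.5 CPM in 5xFAD and 42.6, 49.2 and 40.2 CPM in WT, a log2 difference of 0.15 ± 0.19 that changed to −0.13 ± 0.18 after the same correction. These genes have the highest GC content of the 10, 54.5% for Rgs12 and 57.6% for Rgs14.

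WT replicate 3 did not move the 10 genes alike. Set against the mean of WT replicates 1 and 2 on the log2 CPM scale, it was higher by 1.53 for Rgs10, 0.93 for Rgs4, 0.70 for Rgs5 and 0.45 for Rgs2, and lay between −0.19 and −0.02 for the other 6 genes. Transcript GC content was 44.0% for Rgs4, 41.1% for Rgs5 and 43.6% for Rgs2, below the 47.6% of Rgs7. GC content did not order all the genes, since Rgs17 had the lowest value, 36.9%, with a deviation of −0.13, and Rgs10 and Rgs8 had nearly equal GC content, 50.7% and 50.5%, with deviations of 1.53 and −0.03. The longest protein-coding transcript had 880 bases for Rgs10 and 8474 bases for Rgs8. The trend fitted to GC content and length put WT replicate 3 at 0.44 for Rgs10, −0.17 for Rgs8 and 0.72 for Rgs17. These trend values are log2 shifts from the mean of all 6 libraries. The part of GC content or length in the result for any of the 10 genes was not tested beyond the corrected fit above.

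**Figure D4:**
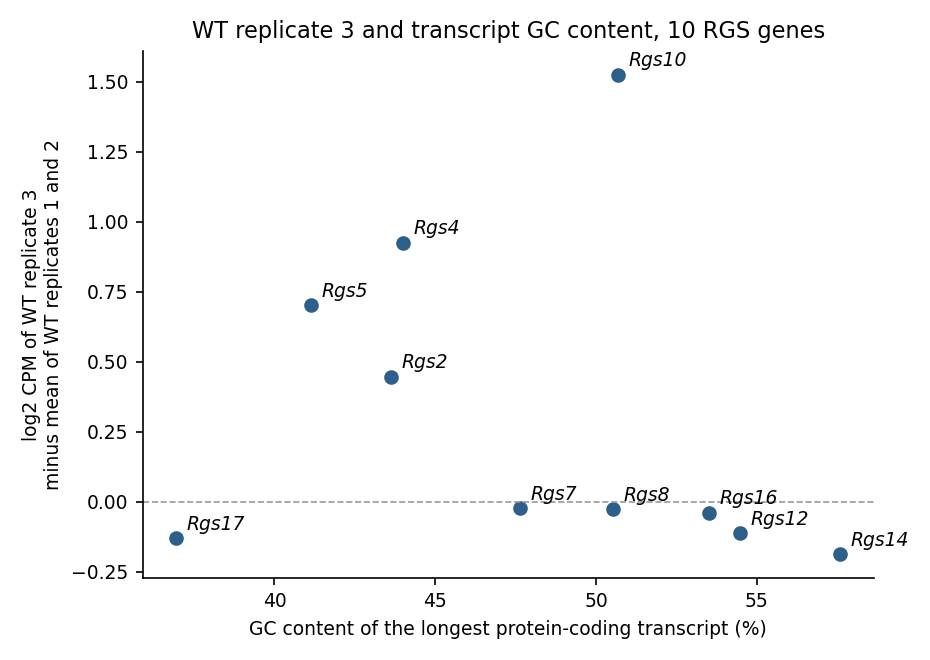
Deviation of WT replicate 3 from the mean of WT replicates 1 and 2 (log2 CPM) against the GC content of each gene's longest protein-coding transcript (percent), for the 10 RGS genes. Rgs10 (1.53), Rgs4 (0.93), Rgs5 (0.70) and Rgs2 (0.45) lie above the dashed line at 0, and the other 6 genes lie between −0.19 and −0.02.

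Ratios within a library hardly depend on its scaling, so the glial and mural genes were also set against neuronal Rgs4. The log2 ratio of Rgs10 to Rgs4 was −1.90, −2.02 and −1.86 in 5xFAD, against −3.49, −3.67 and −2.98 in WT. The genotypes did not overlap, and the mean was 1.45 higher in 5xFAD, a ratio 2.74 times that of WT. The exact two-sided permutation test over 3 and 3 libraries gave p = 0.1, the smallest it can give, and 0.175 after adjustment over the 7 ratios compared. Leaving out any library kept the difference between 1.31 and 1.65, and it was 1.36 after correction for GC content and length. WT replicate 3 was here the nearest of the WT libraries to 5xFAD.

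The log2 ratio of Rgs5 to Rgs4 was 0.03, 0.34 and 0.49 in 5xFAD, against −0.85, −0.08 and −0.69 in WT. It was 0.82 higher in 5xFAD without overlap (exact permutation p = 0.1), with WT replicate 2 the nearest to 5xFAD. The log2 ratio of Rgs10 to Rgs5 was −1.93, −2.36 and −2.35 in 5xFAD, against −2.64, −3.59 and −2.29 in WT, and overlapped (exact permutation p = 0.3). Its difference of 0.63 became 0.25 without WT replicate 2.

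The same genes were set against the mean log2 level of markers of the cell type each is known from. Of 12 microglial markers, 11 were tested and 5 were called, all higher in 5xFAD. The called markers were Trem2, a lipid-sensing receptor, the complement genes C1qa, C1qb and C1qc, and the integrin Itgam, with log2 differences between 1.62 and 3.28. Cx3cr1, which with C1qc had the highest CPM of the markers, was at 1.46 ± 0.39. The median over the tested markers was 1.62, and all 12 summed to 753 to 816 CPM in 5xFAD and 185 to 282 CPM in WT. Trem2 had 25.5, 28.1 and 23.6 CPM in 5xFAD and 2.51, 2.48 and 2.95 CPM in WT. Csf1r, a defining microglial receptor, was listed at 0.46 CPM in 5xFAD and 0.34 CPM in WT, and how reads were assigned to it is not known, so these values may not be its level. Relative to these markers Rgs10 was lower in all 5xFAD libraries, at −2.20, −2.33 and −2.18, than in WT libraries, at −1.35, −1.79 and 0.18 (difference −1.25, exact permutation p = 0.1). Without WT replicate 3 the difference was −0.67. Microglial markers thus moved by more than Rgs10 did, and their part in the value of Rgs10 was not tested.

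The 9 tested mural markers held no called gene. Their median log2 difference was 0.15, or −0.09 after correction for GC content and length, and all 12 listed markers summed to 240 to 312 CPM in 5xFAD and 214 to 255 CPM in WT. The most abundant of the listed genes, Cspg4 and Vtn, differed by 0.49 ± 0.27 and −0.03 ± 0.20. Whether reads of the listed genes came only from mural cells was not tested. The mural markers Kcnj8, Higd1b and Ndufa4l2 had too few counts to test. Rgs5 relative to these markers was 0.94, 1.27 and 0.89 in 5xFAD and 0.67, 1.36 and 1.95 in WT (difference −0.29, exact permutation p = 0.6), and the difference was 0.02 without WT replicate 3. The 8 excitatory neuron markers also held no called gene (median −0.09), with sums of 15469 to 17039 CPM in 5xFAD and 7926 to 19354 CPM in WT, the lowest being WT replicate 3. Rgs4 relative to them was −3.53, −3.48 and −3.40 in 5xFAD and −2.90, −3.23 and −1.52 in WT. The difference was −0.92 (exact permutation p = 0.1), and −0.40 without WT replicate 3, still without overlap. The most abundant excitatory markers, Camk2a and Nrgn, differed by 0.15 ± 0.36 and 0.05 ± 0.40 with all libraries and by −0.15 ± 0.07 and −0.31 ± 0.09 without WT replicate 3. Interneuron markers were all below 0 (8 of 8, median −0.42, none called), with Gad1 at −0.16 ± 0.18 and Sst at −0.38 ± 0.22. With WT replicate 3 left out, edgeR called Npy among the interneuron markers, lower in 5xFAD, where 2.89% of all tested genes were called. No marker of neighbouring tissue was called with all libraries. Of 5 tested striatal markers 4 were below 0 (median −0.53, sums of 130 to 200 CPM in 5xFAD and 68.5 to 176 CPM in WT), and edgeR called Penk, lower in 5xFAD, when WT replicate 3 was left out. Of 5 cortical markers 4 were below 0 (median −0.19, sums of 299 to 373 CPM in 5xFAD and 298 to 410 CPM in WT). Thalamic markers were below 0 for 3 of 5 (median −0.07, sums of 148 to 192 CPM in 5xFAD and 161 to 197 CPM in WT). All 5 choroid plexus markers were above 0 (median 0.80, sums of 731 to 4344 CPM in 5xFAD and 401 to 2305 CPM in WT). The part of interneurons and of neighbouring tissue in the value of Rgs4 was not tested. The genes of highest CPM among those listed as CA2 markers, Necab2 and Ntsr2, differed by 0.12 ± 0.22 and 0.48 ± 0.34. Whether reads of the listed genes came only from CA2 neurons was not tested. Rgs14 relative to CA2 markers differed by −0.10 (exact permutation p = 0.6), and by −0.34 after correction for GC content and length (exact permutation p = 0.3).

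**Figure D5:**
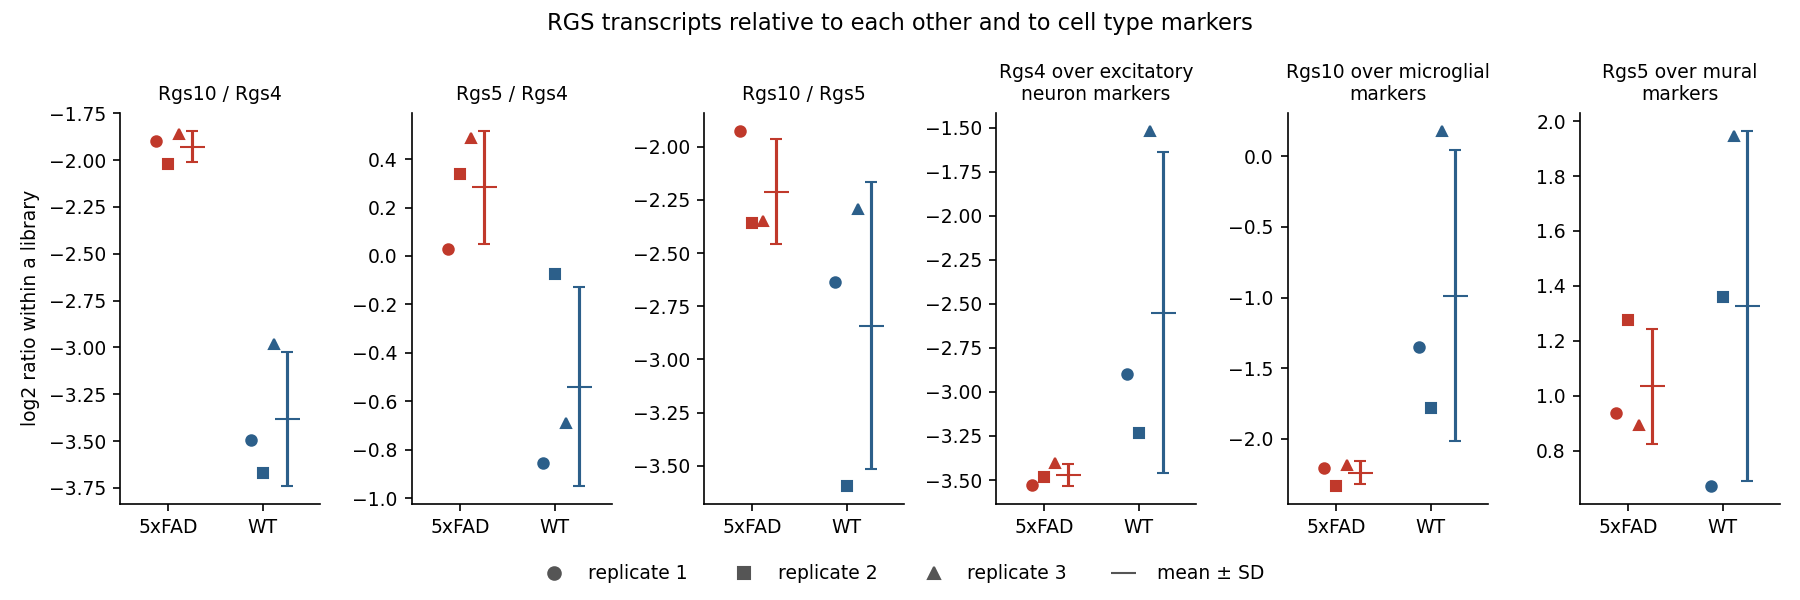
Log2 ratios within each library, 5xFAD in red and WT in blue: Rgs10 to Rgs4, Rgs5 to Rgs4, Rgs10 to Rgs5, and Rgs4, Rgs10 and Rgs5 relative to the mean log2 CPM of the markers of excitatory neurons, microglia and mural cells. Points are libraries and bars are the mean ± SD (n = 3). The genotypes do not overlap for Rgs10 to Rgs4 (difference 1.45), and WT replicate 3 (triangle) is far above the other WT libraries in the excitatory neuron and microglial panels.

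Of 11 further RGS genes listed, 7 could be tested, none was called by edgeR and none had an unadjusted p under 0.05, with a median log2 difference of 0.20. Correction for GC content and length brought that median to −0.01, and leaving out WT replicate 3 to 0.04. Its most abundant genes, Rgs3 and Rgs11, are also among the 4 with the smallest p, which were Rgs22 (0.41 ± 0.40), Rgs19 (0.27 ± 0.28), Rgs11 (0.20 ± 0.24) and Rgs3 (0.23 ± 0.27). Rgs1, Rgs13 and Rgs18, known from immune cells, had at most 4 counts in any library. Rgs21 was not analysed here.

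Among the partners of R7 proteins, Rgs7bp, the membrane anchor of Rgs7, had 268, 285 and 266 CPM in 5xFAD, against 308, 334 and 312 CPM in WT. The groups did not overlap, and the log2 difference of −0.22 ± 0.17 was not called (adjusted p = 0.82, edgeR). Gpr158, a receptor that binds Rgs7, had a log2 difference of −0.18 ± 0.16. Gnb5, the obligate partner of R7 proteins, was listed at 0 in all 6 libraries, so that nothing can be said of its level.

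Among the G protein subunits on which RGS proteins act, Gna15, the Gq-type subunit of blood-derived cells, was the only gene called. It had 6.32, 10.7 and 7.56 CPM in 5xFAD and 1.82, 1.93 and 1.05 CPM in WT (log2 difference 2.34 ± 0.39, adjusted p = 0.035, edgeR). The 2 subunits with the highest CPM in each class were not called. On the log2 scale Gnao1 and Gnai2 of the Gi/o class differed by 0.11 ± 0.29 and 0.40 ± 0.26, Gnaq and Gna11 of the Gq class by −0.02 ± 0.19 and 0.16 ± 0.19, Gnas and Gnal of the Gs and G12/13 class by 0.24 ± 0.36 and −0.04 ± 0.17, and Gnb1 and Gnb2 by −0.08 ± 0.17 and 0.24 ± 0.21. Of these, Gnai2 and Gnb2 were higher and Gnb1 lower in all 5xFAD libraries than in all WT libraries. Over all tested genes, 8.42% were higher and 6.35% lower in this way. Gnao1 turned to −0.15 ± 0.08 and Gnas to −0.10 ± 0.12 without WT replicate 3, and Gnai2 was then at 0.17 ± 0.09. None of the 24 tested Gi/o-coupled receptors and none of the 10 tested Gq-coupled receptors was called or had an unadjusted p under 0.05, with medians of −0.04 and −0.01. These medians were −0.19 and −0.03 without WT replicate 3. The most abundant receptors, Gabbr2 and Gabbr1 of GABA, differed by 0.12 ± 0.32 and −0.06 ± 0.26, and the glutamate receptor Grm5 and the muscarinic receptor Chrm1 by −0.19 ± 0.17 and 0.11 ± 0.19.

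Of 14 tested effectors of G proteins none was called by edgeR, while 5 had an unadjusted p under 0.05. Of these 2 were higher in 5xFAD, against 4.52% of all tested genes, and 3 were lower, against 1.78%. The higher genes were Plcb2 and Plcb3 (0.58 ± 0.22) and the lower genes were Plcb4, the adenylyl cyclase Adcy8 (−0.55 ± 0.18) and the potassium channel subunit Kcnj3 (−0.46 ± 0.18). Plcb2, known from blood cells, had 14.0, 12.8 and 8.91 CPM in 5xFAD and 6.14, 4.32 and 2.29 CPM in WT (log2 difference 1.48 ± 0.39, adjusted p = 0.27, edgeR). Plcb4, a neuronal form, had 25.5, 30.2 and 32.9 CPM in 5xFAD and 36.1, 49.2 and 55.5 CPM in WT (log2 difference −0.67 ± 0.22, adjusted p = 0.51, edgeR). Plcb2, Adcy8 and Kcnj3 were called by edgeR, in the same directions, when WT replicate 3 was left out, where 2.89% of all tested genes were called. The most abundant effectors, the adenylyl cyclases Adcy1 and Adcy5, differed by −0.23 ± 0.21 and 0.17 ± 0.28.

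Of 13 immediate early genes, which follow neuronal activity, none was called and 2 had an unadjusted p under 0.05, both lower in 5xFAD, against 1.78% of all tested genes. The median of the 13 genes was −0.15, and −0.34 without WT replicate 3. The 2 genes were Homer1 at −0.45 ± 0.19 and Bdnf at −0.94 ± 0.37, which became −0.31 ± 0.12 and −0.50 ± 0.25 without WT replicate 3. The most abundant, Egr1 and Arc, were at −0.24 ± 0.36 and −0.15 ± 0.32 with all libraries. When that library was left out, edgeR called 4 of the 13, all lower in 5xFAD: Egr1 (−0.58 ± 0.08), Arc (−0.46 ± 0.08), Nr4a1 and Dusp1. In that fit 2.89% of all tested genes were called, and 67 of 13376 tested genes were called lower in 5xFAD. None of the 13 was called after correction for GC content and length. The effectors and early genes outside the most abundant were picked out after their values were seen.

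The genes whose profile over the 6 libraries came closest to a member were found by the root mean square difference of centred log2 CPM. For Rgs4, whose own SD over the libraries was 0.58, these were Syt4 (0.09), Sh2d4b (0.10) and Dcun1d3 (0.11). Syt4, a synaptotagmin of secretory vesicles, had 41.0, 45.6 and 42.8 CPM in 5xFAD and 66.5, 59.5 and 116 CPM in WT. For Rgs10 they were Bmp5 (0.10), Mospd2 (0.13) and Abcb10 (0.15). For Rgs5 they were Prps2 (0.05), Reep3 (0.06) and Rps10-ps1 (0.06). Sh2d4b, Bmp5 and Rps10-ps1 reached at most 4.29, 1.91 and 1.71 CPM in any library, so their profiles rest on few counts.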

How the data were processed

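Per the labels, the authors depleted ribosomal RNA, made low-input libraries and sequenced reads of 150 bases in pairs. The submitters' processing notes name cutadapt 1.9.3, HISAT2 2.0.4, HTSeq 0.9.1, edgeR 3.16.5 and mm10. Neither the annotation release nor the strand setting is given in the sources used here. The deposited values used are raw counts per gene, and 6 columns of the authors' normalized log2 values were not used.

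Here, counts were scaled by TMM and tested with edgeR 4.0.16 (R 4.3.3; quasi-likelihood, filterByExpr with a minimum count of 10, Benjamini-Hochberg over all 12952 tested genes, which held 99.9% of counts), with limma 3.58.1 and DESeq2 1.42.0 as alternatives. Log2 CPM used a prior count of 2. Transcript length and GC content came from GENCODE M21 and had a value for 98.6% of tested genes. The scripts were tested on simulated counts for the same comparison and 12952 genes, where unchanged genes made up 2 calls of the quasi-likelihood test (1.61% of its calls), 8 of the likelihood ratio test (5.93%) and 14 of DESeq2 (10.4%). The simulated counts had the same dispersion for every gene and no GC or length trend in any library. These shares therefore do not measure false calls with a library like WT replicate 3.

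The 10 genes were all named. From the other lists, the rule named called genes, the 2 genes of highest mean CPM and, for RGS genes, the 4 of smallest p. It also named every marker used in a ratio and covered all marker lists, which the text gives only in part: most markers, and lists of neighbouring tissue, are given by counts and sums. The astrocyte, oligodendrocyte and endothelial lists are left out. In them only the astrocyte marker Gfap was called, higher in 5xFAD (log2 difference 2.33 ± 0.21, adjusted p = 0.0020, edgeR). Untested genes and other effectors, early genes and markers (Gnb5, Csf1r, Kcnj8, Higd1b, Ndufa4l2, Rgs1, Rgs13, Rgs18, Plcb2, Plcb3, Plcb4, Adcy8, Kcnj3, Homer1, Bdnf, Nr4a1, Dusp1, Npy and Penk) were named after their values were seen. The genes and lists were chosen with earlier results of these data known.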

Additional observations from a re-analysis of the deposited data

How the results depend on the processing

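The count of genes called was 85 with all libraries and became 218 with DESeq2, 239 with edgeR's likelihood ratio test and 410 with limma-voom and library weights (added after seeing the data), and 15 to 387 when a library was left out, the highest without WT replicate 3 and the lowest without 5xFAD replicate 3. All 85 were higher in 5xFAD, while 9 calls were lower with DESeq2, 7 with the likelihood ratio test, 67 without WT replicate 3 and 55 with library weights. The number of RGS genes called was 0, and became 1 (Rgs4) with DESeq2, the likelihood ratio test, the GC and length correction and library weights, and 0 to 1 when a library was left out. Signs turned for Rgs5 with the GC and length correction (0.067), with library weights (0.15) and without WT replicate 3 (0.091, with −0.39 as the lowest), for Rgs12 (−0.079) and Rgs14 (−0.13) with the GC and length correction, for Rgs10 without WT replicate 2 (−0.019, with 1.01 as the highest), and for Rgs16 without WT replicate 2 (0.04), 5xFAD replicate 1 (0.0037) and 5xFAD replicate 3 (0.080). Rgs5 relative to mural markers turned to 0.088 with the correction and ran between −0.62 and 0.018 when a library was left out, and Rgs14 relative to CA2 markers was −0.34 with the correction and ran between −0.22 and 0.035 when a library was left out. The cause of these changes was not tested. The replicate block called 120 genes and 0 RGS genes, and left Rgs4 at −0.97 with an adjusted p of 0.14 (edgeR). Deviations of same-numbered libraries correlated at 0.09, 0.07 and 0.18, so the numbers were not taken to pair the libraries, although each 5xFAD library correlated best with its own number. With libraries paired by number, an exact sign-flip test of the 3 paired differences in the ratio of Rgs10 to Rgs4 gave p = 0.25. That is the smallest p this test can give with 3 pairs. With 3 libraries a group, no exact permutation test of a ratio could pass the threshold. The fewest counts lay behind Rgs10 and Rgs16, with 542 and 585 in all.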
